A study of Mus musculus with 3 samples.

Results

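Transcripts of 9 P2X and P2Y nucleotide receptor genes were followed across myeloid cells of the mouse colon. The genes are P2rx1, P2rx4 and P2rx7, which encode ATP-gated channels, and P2ry2, P2ry6, P2ry10, P2ry12, P2ry13 and P2ry14, which encode G protein-coupled receptors. They were found by symbol among the 24346 genes listed, and all 9 were present. Another 6 genes of the family, P2rx2, P2rx3, P2rx5, P2rx6, P2ry1 and P2ry4, are described only as its remainder. RNA was sequenced from CD64+ macrophages, CD64- dendritic cells (DC) and Gr-1+ CD11b+ cells, a mixture of neutrophils and monocytes by its label. All came from healthy BALB/c mice, with no treatment, mutation or transgene stated, and the tissue was colon. Their age and sex, and how many were pooled, are not given in the sources used here. The series title names E-NTPD8, an enzyme that degrades extracellular ATP, and the receptor P2X4, which raises the question of which nucleotide receptors each population carries.

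ATP, ADP, UTP, UDP and UDP-glucose leave stressed, dying or activated cells and act on neighbouring cells through these receptors. P2X receptors are trimeric cation channels that open when ATP binds, so sodium and calcium enter the cell and potassium leaves it. P2Y receptors signal through G proteins, and the family splits into receptors that couple to Gq and raise intracellular calcium, receptors that couple to Gi and lower cyclic AMP, and P2Y10, which was named for its sequence but responds to lysophosphatidylserine. In the gut, extracellular ATP of host and bacterial origin is a known signal to macrophages, DC and neutrophils.

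Each population had 1 library, so nothing below has a replicate check, and tests and p-values are absent. Levels are FPKM (fragments scaled by transcript length and by the mapped total of the library), which can be compared between genes because they are per length. The steps of the FPKM values put the library sizes at about 6790000 fragments in macrophages, 9000000 in DC and 2510000 in the Gr-1+ CD11b+ cells. Each interval in the text is an exact 95% interval from the fragments estimated in this way on the shortest annotated coding transcript over 800 nt, and covers counting error only, not variation between mice or sorts. Signal from genes that these cells should not use also differed, and the 95th percentile over 1445 olfactory and vomeronasal receptor genes, called the silent-gene level here, was 3.23 FPKM in macrophages, 0.610 FPKM in DC and 9.67 FPKM in Gr-1+ CD11b+ cells. Fcgr1, the gene of CD64, reached 113 FPKM in macrophages, against 9.23 FPKM in DC and 12.3 FPKM in Gr-1+ CD11b+ cells, and Itgam, the gene of CD11b, reached 114, 18.7 and 172. The DC library did not follow its label in every marker. In it, 11 B and plasma cell markers summed to 22986 FPKM, against 1180 FPKM in macrophages and 438 FPKM in Gr-1+ CD11b+ cells. The 9 dendritic cell markers summed to 418, 1487 and 86.0 FPKM in macrophages, DC and Gr-1+ CD11b+ cells. Ccr7 alone made up 1004 FPKM of the DC sum. Batf3 (42.1 against 20.6 FPKM) and Xcr1 (3.30 against 2.83) were higher in macrophages than in DC, and the rest were higher in DC. Itgax, which encodes CD11c, was likewise most abundant in macrophages (47.0 FPKM), with 19.7 for DC and 16.4 for Gr-1+ CD11b+ cells. In bulk RNA a lower share of expressing cells and less RNA per cell cannot be told apart.

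All 9 receptor genes exceeded the silent-gene level in macrophages and in DC, and 4 of 9 did in Gr-1+ CD11b+ cells, namely P2rx4, P2ry2, P2ry6 and P2ry13. The closest to this level were P2ry6 in Gr-1+ CD11b+ cells, at 1.03 times, P2ry14 there at 0.922 times, P2rx1 in macrophages at 1.18 times and P2ry12 in DC at 1.53 times. Of all 17329 genes at 1 FPKM or more in any library, 50.4%, 72.0% and 26.3% exceeded it in macrophages, DC and Gr-1+ CD11b+ cells. Over all 15 genes of the family that were listed, 9, 10 and 4 did. The 9 genes were chosen with earlier results of these data known, so nothing about the family is read from their counts. Macrophages had the highest FPKM of the 3 libraries for 6 of the 9 genes (among them P2rx1, which did not differ from DC beyond counting error), DC for P2ry10, and Gr-1+ CD11b+ cells for P2ry2 and P2ry13, where 19.4%, 36.9% and 43.7% of all genes had their highest value in those libraries. Summed over the 9 genes, the level was 396 FPKM in macrophages, 233 FPKM in DC and 139 FPKM in Gr-1+ CD11b+ cells.

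**Figure D1:**
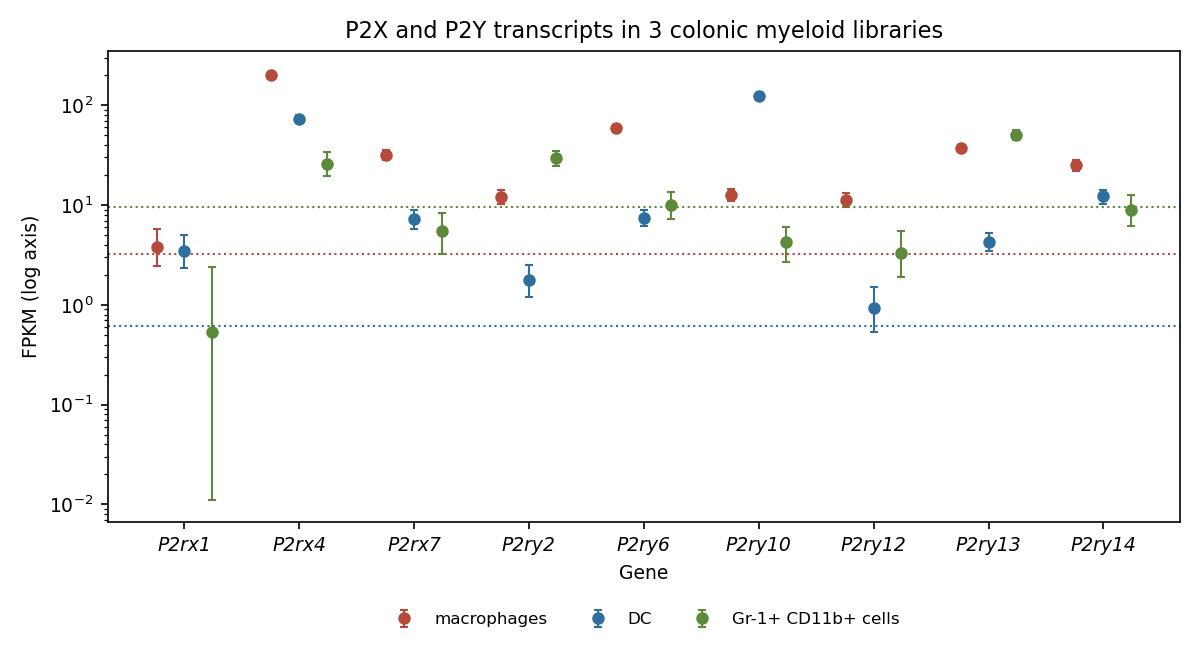
FPKM (log axis) of the 9 receptor genes in macrophages, DC and Gr-1+ CD11b+ cells, 1 library each. Bars are exact 95% intervals of the estimated fragments (counting error only) and dotted lines the silent-gene level of each library, 3.23, 0.610 and 9.67 FPKM. P2ry10 is highest in DC at 123 FPKM, P2rx4 in macrophages at 203, and 5 genes of the Gr-1+ CD11b+ library lie below its line.

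Each library was led by a different receptor gene. In macrophages P2rx4 held 51.3% of the summed FPKM of the 9 genes, followed by P2ry6 with 14.9% and P2ry13 with 9.35%. In DC P2ry10 held 52.6% and P2rx4 31.4%, and no other gene held more than the 5.23% of P2ry14. In Gr-1+ CD11b+ cells P2ry13 held 36.6%, P2ry2 21.2% and P2rx4 18.7%. By class, the P2X channels held 60.3% in macrophages, 36.0% in DC and 23.1% in the Gr-1+ CD11b+ cells. The Gi-coupled genes P2ry12, P2ry13 and P2ry14 together held 18.6%, 7.47% and 45.5%, and the Gq-coupled genes P2ry2 and P2ry6 held 17.9%, 3.98% and 28.4%. These shares are ratios within a library and do not change with the scaling between libraries. They do change when the silent-gene level is subtracted, although the leading gene of each library stayed the same. In Gr-1+ CD11b+ cells P2ry13 then held 53.1%, and P2ry6 fell from 7.18% to 0.365%. P2rx1, P2rx7, P2ry10, P2ry12 and P2ry14 fell to 0 there, so the class shares of that library include genes below its silent-gene level. Without P2ry10, P2rx4 held 53.0% in macrophages, 66.3% in DC and 19.3% in the Gr-1+ CD11b+ cells.

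**Figure D2:**
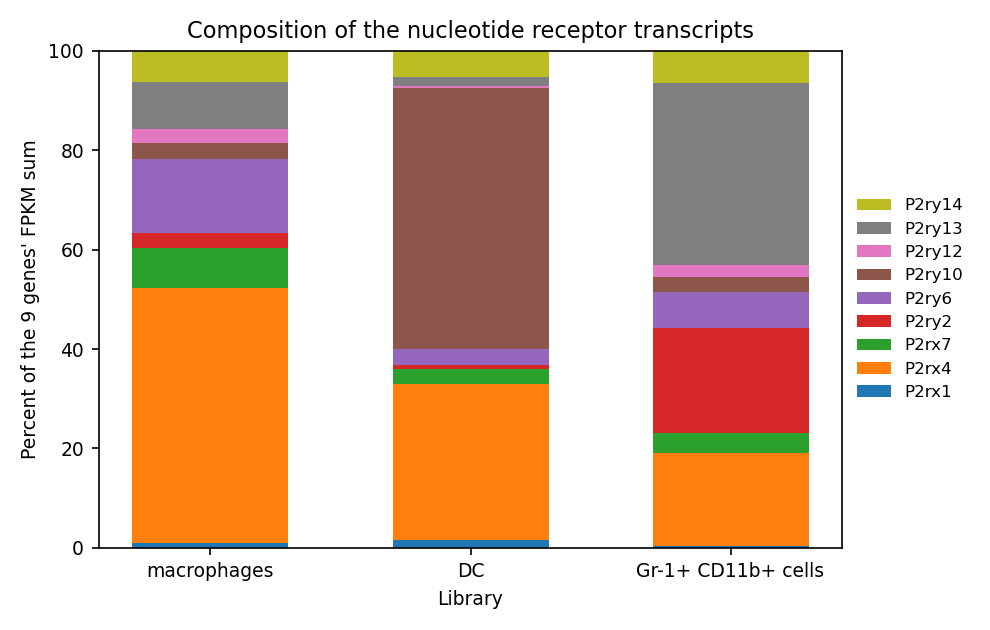
Share of each gene in the summed FPKM of the 9 receptor genes (vertical axis, percent) in macrophages, DC and Gr-1+ CD11b+ cells. P2rx4 is the largest part in macrophages (51.3%), P2ry10 in DC (52.6%) and P2ry13 in Gr-1+ CD11b+ cells (36.6%).

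The DNA around the start sites is shown for the gene that leads each library and for P2rx7, the neighbour of P2rx4. Promoter windows (RefSeq, GRCm38.p6, the C57BL/6J reference and not BALB/c) ran from 250 bases before to 50 after the start farthest upstream, and 8 of the 9 genes had one. They were searched on both strands for GAGGAA, a core bound by PU.1 and related Ets factors of myeloid cells and B cells, and for TGANTCA, the AP-1 motif. These letters cannot overlap each other, and capitals mark each match. GAGGAA was found in 3 of the 8 windows (P2rx7, P2ry13 and P2ry14) and in 28.3% of 32851 windows of the same length in the table. TGANTCA was found in 3 of the 8 (P2rx7, P2ry10 and P2ry14) and in 7.81% of all. The printed windows are chr5:122707294-122707593 (plus strand), chr5:122643677-122643976 (plus), chrX:107088242-107088541 (plus) and chr3:59210833-59211132 (minus). Neither motif occurs in the P2rx4 window, whereas the P2rx7 window holds each of them once, so these neighbouring genes differ in the letters searched.
P2rx4 promoter: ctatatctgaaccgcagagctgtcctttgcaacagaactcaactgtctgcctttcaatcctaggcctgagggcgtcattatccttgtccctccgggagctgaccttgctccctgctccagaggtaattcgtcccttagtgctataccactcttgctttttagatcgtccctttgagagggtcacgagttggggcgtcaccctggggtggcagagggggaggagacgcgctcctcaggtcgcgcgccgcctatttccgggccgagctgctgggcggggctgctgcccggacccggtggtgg
P2rx7 promoter: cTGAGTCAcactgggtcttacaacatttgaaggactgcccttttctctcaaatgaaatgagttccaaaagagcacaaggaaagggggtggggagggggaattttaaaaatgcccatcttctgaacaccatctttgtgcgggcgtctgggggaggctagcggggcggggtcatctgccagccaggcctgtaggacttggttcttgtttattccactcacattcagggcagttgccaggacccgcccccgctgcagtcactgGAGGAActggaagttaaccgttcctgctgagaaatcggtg
P2ry10 promoter: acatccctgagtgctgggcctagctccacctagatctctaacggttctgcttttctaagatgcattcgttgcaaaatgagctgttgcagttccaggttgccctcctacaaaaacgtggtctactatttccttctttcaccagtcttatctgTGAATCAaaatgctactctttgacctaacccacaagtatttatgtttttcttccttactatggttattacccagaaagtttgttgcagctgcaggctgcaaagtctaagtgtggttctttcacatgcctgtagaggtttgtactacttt
P2ry13 promoter: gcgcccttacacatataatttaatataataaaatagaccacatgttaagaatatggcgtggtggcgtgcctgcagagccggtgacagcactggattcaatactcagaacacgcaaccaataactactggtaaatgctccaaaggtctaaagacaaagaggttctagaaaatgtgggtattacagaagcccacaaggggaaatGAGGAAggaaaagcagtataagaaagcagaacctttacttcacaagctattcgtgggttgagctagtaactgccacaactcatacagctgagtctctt

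Among the channels, P2rx4 was the most abundant in every library. P2X4 resides largely in lysosomes, from which it reaches the surface, and passes calcium. P2rx4 (chromosome 5, 122707544 to 122729738, plus strand, GRCm38, GENCODE M21) was at 203 FPKM in macrophages (interval 191 to 215), 73.4 in DC (67.4 to 79.8) and 25.9 in Gr-1+ CD11b+ cells (19.5 to 33.9). The intervals do not overlap, and its rank within each library had the same order: 95.1%, 88.1% and 85.7% of the genes at 1 FPKM or more lay below P2rx4 in macrophages, DC and Gr-1+ CD11b+ cells. The level in macrophages was 2.76 times that in DC (2.49 to 3.06) and 7.82 times that in Gr-1+ CD11b+ cells (5.94 to 10.5). Between DC and Gr-1+ CD11b+ cells the ratio was 2.83 (2.13 to 3.81). Against the silent-gene level, P2rx4 stood at 62.85 times in macrophages, 120 times in DC and 2.68 times in Gr-1+ CD11b+ cells. By that measure DC was the highest.

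P2X7 opens only at high ATP and is the receptor best known for triggering the NLRP3 inflammasome. P2rx7 (chromosome 5, 122643911 to 122691432, plus strand) was at 31.9 FPKM in macrophages (28.4 to 35.7), 7.21 in DC (5.80 to 8.84) and 5.54 in Gr-1+ CD11b+ cells (3.25 to 8.43). In FPKM, macrophages were thus the highest. DC and Gr-1+ CD11b+ cells overlapped, with a ratio of 1.3 (0.807 to 2.32), and the Gr-1+ CD11b+ value was below the silent-gene level. Against that level, P2rx7 stood at 9.89 times in macrophages, 11.8 times in DC and 0.573 times in Gr-1+ CD11b+ cells. By that measure DC was the highest. The P2rx4 level was 6.36 times that of P2rx7 in macrophages, 10.2 times in DC and 4.68 times in Gr-1+ CD11b+ cells. P2rx1 (chromosome 11, 72999103 to 73015200, plus strand), whose fast channel is best known in platelets and smooth muscle, was at 3.79 FPKM in macrophages, 3.46 FPKM in DC and 0.531 FPKM in Gr-1+ CD11b+ cells. Macrophages and DC did not differ beyond counting error (ratio 1.10, 0.611 to 1.95), and the Gr-1+ CD11b+ value corresponded to between 1 and 3 fragments, so its ratio from macrophages, 7.14, had an interval of 1.44 to 364. Of 10 platelet marker genes, 1 exceeded the silent-gene level in macrophages, 3 in DC and 1 in the Gr-1+ CD11b+ cells, with summed levels of 522, 67.4 and 58.1 FPKM. Nearly all of that was Pf4, and Itga2b, a defining platelet gene, was at 0.407, 0.786 and 0.245 FPKM. Their part in the P2rx1 values was not tested.

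The Gq-coupled genes P2ry2 and P2ry6 lie next to each other on chromosome 7, 21.9 kb apart on the minus strand, and had different patterns. P2Y6 is a UDP receptor known to promote phagocytosis by mouse microglia, and P2Y2 is a receptor of ATP and UTP that lets phagocytes sense dying cells and guides neutrophils. P2ry6 (100937630 to 100974649) was at 58.8 FPKM in macrophages (54.5 to 63.3), 7.5 in DC (6.22 to 8.99) and 9.95 in Gr-1+ CD11b+ cells (7.31 to 13.5). P2ry2 (100996568 to 101012866) was at 12.1 FPKM in macrophages (10.4 to 14.2), 1.78 in DC (1.21 to 2.52) and 29.4 in Gr-1+ CD11b+ cells (24.8 to 34.7). P2ry6 was thus highest in macrophages with DC and Gr-1+ CD11b+ cells overlapping. In FPKM, P2ry2 was highest in Gr-1+ CD11b+ cells and lowest in DC with no overlap. Against the silent-gene level, P2ry2 stood at 3.76 times in macrophages, 2.91 times in DC and 3.05 times in Gr-1+ CD11b+ cells. By that measure macrophages were the highest. With that level subtracted, the P2ry2 log2 difference of macrophages minus Gr-1+ CD11b+ cells was -1.07. The part of background in the P2ry2 order was not tested. The ratio of P2ry6 to P2ry2 was 4.85 in macrophages, 4.23 in DC and 0.338 in the Gr-1+ CD11b+ cells. The more abundant gene of the pair was therefore P2ry6 in macrophages and DC, and P2ry2 in Gr-1+ CD11b+ cells.

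The Gi-coupled genes form a cluster on the minus strand of chromosome 3, and P2ry13 stood apart from P2ry12 and P2ry14 there. P2Y12 and P2Y13 are both receptors of ADP, of which P2Y12 is the target of antiplatelet drugs and a marker of microglia, and P2Y14 responds to UDP-glucose. P2ry13 (59207892 to 59210882) was at 37.0 FPKM in macrophages (34.0 to 40.1), 4.29 in DC (3.46 to 5.28) and 50.8 in Gr-1+ CD11b+ cells (45.1 to 56.9). P2ry12 (59216272 to 59262871), 5.39 kb away, was at 11.3 FPKM in macrophages (9.55 to 13.3), 0.933 in DC (0.535 to 1.52) and 3.34 in Gr-1+ CD11b+ cells (1.92 to 5.46). In FPKM, P2ry13 was thus lowest in DC and highest in Gr-1+ CD11b+ cells. Against the silent-gene level it stood at 11.5 times in macrophages, 7.02 times in DC and 5.25 times in Gr-1+ CD11b+ cells. P2ry12 was highest in macrophages, and since its Gr-1+ CD11b+ value was below the silent-gene level, no order is read between DC and those cells. The P2ry13 level was 3.27 times that of P2ry12 in macrophages, 4.59 times in DC and 15.2 times in Gr-1+ CD11b+ cells. P2ry14 (59113855 to 59153618) was at 25.2 FPKM in macrophages (22.1 to 28.6), 12.2 in DC (10.3 to 14.3) and 8.92 in Gr-1+ CD11b+ cells (6.17 to 12.7). Macrophages were the highest for P2ry14, the intervals of DC and Gr-1+ CD11b+ cells overlapped, and the Gr-1+ CD11b+ value was below the silent-gene level.

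These genes lie within Med12l, a mediator subunit gene on the opposite strand. Whether the libraries kept strand is not stated in the sources used here, so reads of Med12l introns or exons and of the receptors could not be told apart where they overlap. Med12l itself was at 0.465 FPKM in macrophages, 0.132 FPKM in DC and 1.69 FPKM in Gr-1+ CD11b+ cells. Gpr171, a receptor gene beside P2ry14 that encodes a receptor of the neuropeptide BigLEN, had yet another order, at 87.8 FPKM in macrophages, 269 FPKM in DC and 15.9 FPKM in Gr-1+ CD11b+ cells. Levels are also given for genes flanking the other receptors. Camkk2, a calmodulin-dependent kinase kinase gene 1.43 kb from P2rx4, was at 3.87, 2.88 and 1.62 FPKM in macrophages, DC and Gr-1+ CD11b+ cells. Its order was that of P2rx4 at far lower levels, and its Gr-1+ CD11b+ value was below the silent-gene level. Atp2a3, a calcium pump gene 6.06 kb from P2rx1, was at 11.9, 121 and 20.8 FPKM, and Fchsd2, beside P2ry2, at 3.60, 17.4 and 2.48. Arhgef17, beside P2ry6, and Ift81, beside P2rx7, stayed below 1 FPKM in every library, and Mir8115, within P2rx7, was listed at 0.

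In FPKM, P2ry10 was lower in macrophages than in DC, whereas the other 5 P2Y genes were higher in macrophages. It lies on chromosome X (107088492 to 107104974, plus strand), and was at 12.6 FPKM in macrophages (11.0 to 14.4), 123 in DC (118 to 127) and 4.22 in Gr-1+ CD11b+ cells (2.71 to 6.07). DC thus stood far above both other libraries, with intervals that do not overlap, and the Gr-1+ CD11b+ value was below the silent-gene level. Its paralog P2ry10b, which lies nearby, was not analysed here, and whether fragments of it were assigned to P2ry10 was not tested. Markers of another cell type moved with P2ry10: all 11 B and plasma cell markers passed the size rule given below as higher in DC, against both other libraries, and none was listed at 0 in any library. Of the 9 dendritic cell markers, 2 (Flt3 and Ccr7) passed the rule as higher in DC than in macrophages, and 5 as higher in DC than in the Gr-1+ CD11b+ cells. P2ry10 in macrophages was 10.3% of its DC level, above the range of 2.24 to 8.23% for the B and plasma cell markers. In Gr-1+ CD11b+ cells it was 3.44%, inside their range of 0.835 to 7.81%. Of the T cell and eosinophil markers, 1 of 7 (Lck) and 1 of 6 (Prg2) passed as higher in DC than in macrophages. The 7 T cell markers summed to 65.4 FPKM in macrophages, 94.2 FPKM in DC and 33.4 FPKM in Gr-1+ CD11b+ cells, with Cd3e at 3.22, 4.24 and 1.29. Cd4, at 48.9, 20.3 and 3.83 FPKM, made up most of the macrophage sum, whereas Lck was at 5.36, 40.6 and 9.11. The 6 eosinophil markers summed to 22.1, 117 and 25.2 FPKM, of which Prg2 made up 108 in DC, and Epx, a defining eosinophil gene, was listed at 0 in all 3 libraries. The part of B, plasma, T cells or eosinophils in the P2ry10 value of DC was not tested.

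Differences were then set against a size rule, which asks for a log2(FPKM + 1) difference of at least 2 and a higher library of at least 10 FPKM. For macrophages against DC, 5 of 9 genes were higher in macrophages (P2rx7, P2ry2, P2ry6, P2ry12 and P2ry13), where 2.31% of all 17329 genes were, and 1 of 9 (P2ry10) was higher in DC, where 1.53% were. The shares of all genes, here and below, include genes that never reach 10 FPKM and so cannot pass. They would be higher among genes that reach 10 FPKM, as all of the 9 but P2rx1 do. The median difference was 2.0 over the 9 genes and 0.05 over all genes. P2ry13 had the largest positive difference, 2.85, then P2ry6 with 2.82, P2ry12 with 2.67, P2ry2 with 2.24 and P2rx7 with 2.0, and P2ry10 was at -3.19. P2rx4 (1.45), P2ry14 (0.99) and P2rx1 (0.10) did not reach the rule. With the libraries scaled to equal FPKM sums, P2rx7 and P2ry2 were at 1.65 and 1.95 and no longer passed, which left 3 genes higher and 1 lower.

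For macrophages against Gr-1+ CD11b+ cells, 3 of 9 genes were higher in macrophages (P2rx4, P2rx7 and P2ry6), against 3.41% of all genes, and 0 of 9 were higher in Gr-1+ CD11b+ cells, against 1.41%. The median difference was 1.5 over the 9 genes and -0.10 over all genes. P2rx4 was at 2.92 and passed under each scaling tried, whereas P2ry6 (2.45) and P2rx7 (2.33) were at 1.91 and 1.82 with median-ratio scaling. P2ry2 at -1.21 and P2ry13 at -0.45 pointed towards Gr-1+ CD11b+ cells without reaching the rule. For DC against Gr-1+ CD11b+ cells, P2ry10 was higher in DC by 4.57, as 6.28% of all genes were by the rule, and P2ry2 and P2ry13 were higher in Gr-1+ CD11b+ cells, at -3.46 and -3.29, as 3.65% were. The other 6 genes lay between -1.17 and 1.54, with a median of 0.33 over all 9 and -0.01 over all genes. Of these, P2rx7 (range -0.35 to 2.93), P2ry6 (-1.07 to 2.62), P2ry12 (-1.74 to 0.40) and P2ry14 (-0.30 to 3.65) changed sign among the pseudocounts, scalings and the subtraction tried, as did P2rx1 between macrophages and DC (-1.3 to 0.25), so no order is read for them there. These comparisons share libraries, so they are not independent of each other.

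**Figure D3:**
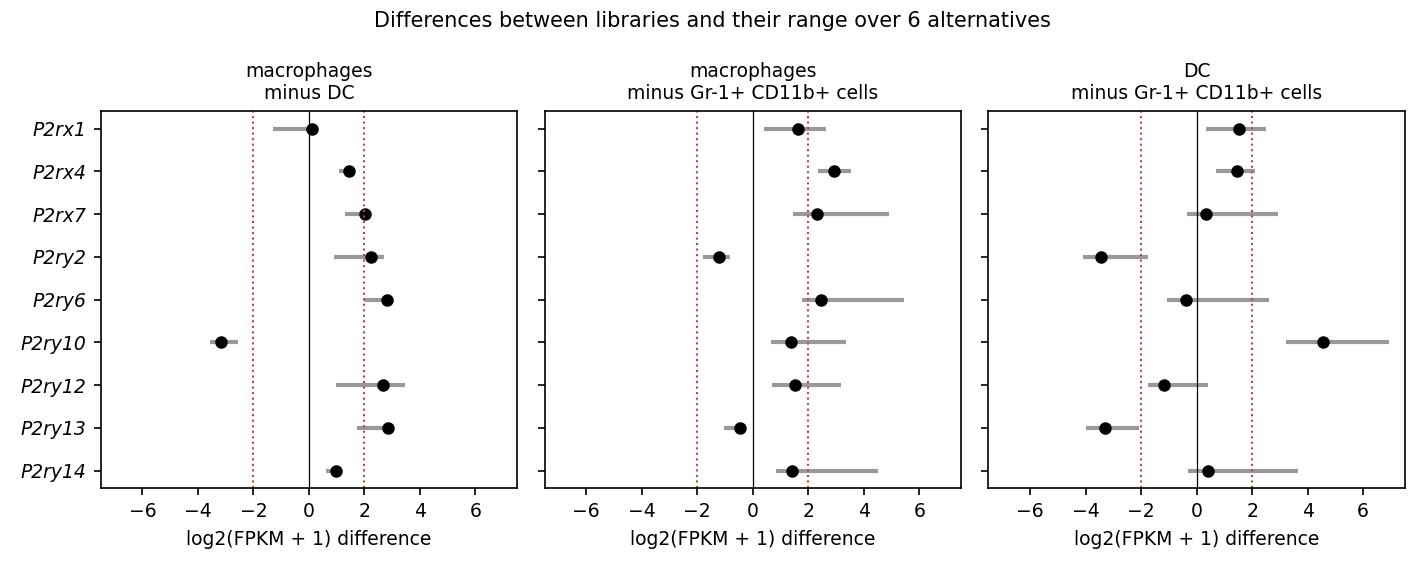
Differences on the log2(FPKM + 1) scale (horizontal axis) for the 9 genes in the 3 comparisons. Black points are the values as deposited, grey bars the range over 2 other pseudocounts, 3 scalings and subtraction of the silent-gene level, and dotted lines the limits of 2 and -2. P2ry10 keeps its side in both comparisons with DC, and P2rx4 stays above 2 in macrophages minus Gr-1+ CD11b+ cells.

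Macrophage markers were lower in the other libraries by amounts that can be set beside the receptors. The 11 macrophage marker genes summed to 29226.8 FPKM in macrophages, 3484.5 FPKM in DC and 2843 FPKM in Gr-1+ CD11b+ cells, and none was listed at 0. In DC they stood at 8.17 to 18.5% of their macrophage level (median 10.9%). P2ry12, P2ry13, P2ry6 and P2ry2 lay inside that range, at 8.25%, 11.6%, 12.8% and 14.6%, and P2rx7, P2rx4, P2ry14 and P2rx1 above it, at 22.6%, 36.2%, 48.4% and 91.3%. In Gr-1+ CD11b+ cells the markers stood at 7.64 to 30.8% (median 10.1%), and P2rx4 at 12.8%, P2rx1 at 14%, P2ry6 at 16.9%, P2rx7 at 17.4% and P2ry12 at 29.5% lay inside. Of these, P2rx1, P2rx7 and P2ry12 were below the silent-gene level of that library and P2ry6 was at 1.03 times it, which limits their percentages. Of the 11 markers, 8 exceeded that level there. The part of macrophage RNA in these values was not tested. P2rx4 in DC thus exceeded the share at which any of the 11 markers was found there, and P2rx4 in Gr-1+ CD11b+ cells did not.

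**Figure D4:**
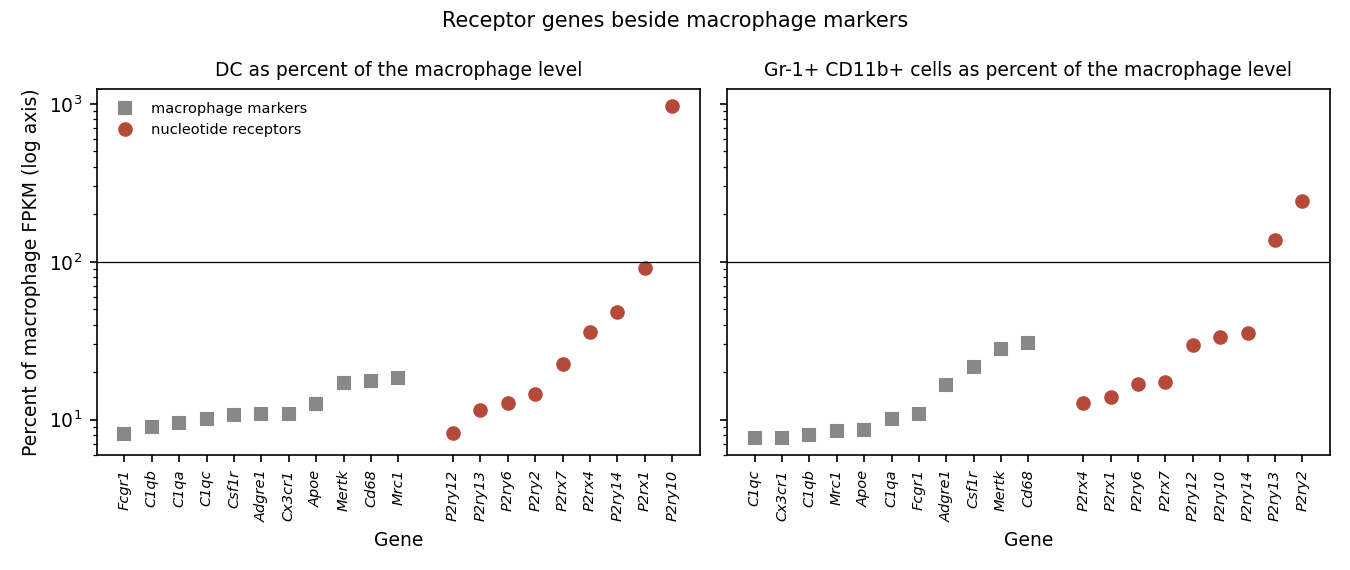
FPKM in DC (left) and in Gr-1+ CD11b+ cells (right) as a percentage of the macrophage FPKM of the same gene (log axis), for 11 macrophage markers (squares) and the 9 receptor genes (circles), each sorted from low to high. In DC the markers reach 18.5% and P2rx4 is at 36.2%, while in Gr-1+ CD11b+ cells they reach 30.8% and P2rx4 is at 12.8%.

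The same setting side by side was made for the neutrophil markers, since P2ry2 and P2ry13 were highest in Gr-1+ CD11b+ cells. The 9 neutrophil markers summed to 4498 FPKM in macrophages, 1718 FPKM in DC and 172299 FPKM in Gr-1+ CD11b+ cells, and none was listed at 0. In macrophages they were at 2.19 to 7.58% of their Gr-1+ CD11b+ level, while P2ry2 was at 41.2% and P2ry13 at 72.8%. In DC they were at 0.840 to 2.77%, while P2ry2 was at 6.03% and P2ry13 at 8.44%. Both genes thus stood above the neutrophil marker range in macrophages and in DC. Of 9 epithelial markers, 1 passed the rule, Krt18, which was lower in macrophages than in Gr-1+ CD11b+ cells. The 9 summed to 440 FPKM in macrophages, 718 FPKM in DC and 1511 FPKM in Gr-1+ CD11b+ cells, and their part in P2ry2, a receptor that epithelium also uses, was not tested. Monocyte markers, the other cell type in the label of the Gr-1+ CD11b+ cells, were not highest there as a list: the 7 genes summed to 1859 FPKM in macrophages, 1106 FPKM in DC and 1143 FPKM in Gr-1+ CD11b+ cells. By the rule 4 of the 7 passed as higher in macrophages than in DC, and 2 of the 7 as higher in macrophages than in Gr-1+ CD11b+ cells. Ccr2, a defining gene of classical monocytes, was at 247, 27.6 and 25.8 FPKM and F13a1 at 130.5, 17.0 and 19.4, both past the rule as higher in macrophages in both comparisons. The part of monocytes in the receptors that were highest in macrophages was not tested.

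The family genes outside the 9 were low everywhere. P2ry1, an ADP receptor of platelets, was at 0.939 FPKM in macrophages, 0.646 FPKM in DC and 1.85 FPKM in Gr-1+ CD11b+ cells, and P2ry4, a UTP receptor, at 0.794, 0.0261 and 2.05. P2rx2, P2rx3, P2rx5 and P2rx6, channels best known from neurons and other excitable cells, reached at most 2.08 FPKM, the level of P2rx3 in Gr-1+ CD11b+ cells. Of these 6 genes, only P2ry1 in DC exceeded the silent-gene level of its library, by a factor of 1.06.

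For each receptor the genes with the closest levels in the 3 libraries were sought by the distance of their log2(FPKM + 1) values, among genes that reach 10 FPKM in any library. Nearest to P2rx4 were Fcgrt, which encodes the neonatal Fc receptor, at 173 FPKM in macrophages, 74.3 FPKM in DC and 27.4 FPKM in Gr-1+ CD11b+ cells (distance 0.24), Cd40, a costimulatory receptor gene (0.28), and Ifi205 (0.43). P2rx7 was closest to Abcg3, Adap2 and Lpl, the lipoprotein lipase gene, at distances of 0.24 to 0.38, and P2ry6 to Npl, Ptgs1, the cyclooxygenase-1 gene, and Smpdl3b (0.36 to 0.43). P2ry2 was closest to Zfp937, Tlr4, the lipopolysaccharide receptor gene, and Mcmdc2 (0.21 to 0.45). Tlr4 was at 10.9 FPKM in macrophages, 2.03 FPKM in DC and 27.7 FPKM in Gr-1+ CD11b+ cells, nearly the levels of P2ry2. P2ry13 was closest to Hacd4, Sh2b2 and Tlr13 (0.16 to 0.44), P2ry12 to Oas1g, Siglec1, a macrophage lectin gene, and Tfec (0.33 to 0.38), and P2ry14 to Lxn, Vwa5a and Osgin2 (0.24 to 0.27). P2ry10 was closest to Bank1, a B cell adaptor gene, at 11.4, 123 and 3.25 FPKM in macrophages, DC and Gr-1+ CD11b+ cells (0.33), to Gramd3 (0.38) and to Tnfrsf13b, the gene of the B cell receptor TACI (0.54). For P2rx1, which never reached 10 FPKM, the limit on candidates keeps close genes out, and the nearest were Taf9b, E2f1 and Xlr4b at 1.37 to 1.42. The distances rest on 3 libraries, and with each gene centred on its own mean none of these neighbours stayed among the nearest 3, other than Hacd4 for P2ry13. For P2ry2 the nearest 3 were then Olfr1184, Olfr449 and Vmn1r24, all of them olfactory or vomeronasal receptor genes of the silent-gene set.

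The signalling machinery behind these receptors was counted by the same rule. Of 11 expressed G protein alpha subunit genes, 1 passed, in 1 of the 3 comparisons: Gna12, of the G12/13 class, was at 34.4 FPKM in macrophages, 11.7 FPKM in DC and 6.62 FPKM in Gr-1+ CD11b+ cells, higher in macrophages than in Gr-1+ CD11b+ cells. Gnai2, the main Gi subunit of leukocytes, stood at 429, 294 and 418 FPKM in these libraries, and Gnaq, a Gq subunit, at 12.2, 4.92 and 4.44. Of 10 phospholipase C and calcium release genes, 0 passed in any comparison. The calcium channel gene Orai1 was at 50.01, 74.8 and 64.5 FPKM and its relative Orai2 at 31.4, 12.3 and 42.8. Of 11 genes of receptor desensitisation, 2 passed, both higher in macrophages than in Gr-1+ CD11b+ cells. They were Rgs1, at 572, 154 and 44.2 FPKM, and Rgs10, at 107, 36.5 and 19.1 in macrophages, DC and Gr-1+ CD11b+ cells, which encode proteins that end G protein signals. The 3 calls in these lists were all for macrophages over Gr-1+ CD11b+ cells, where 3.41% of all genes passed, and nothing particular to the lists is read from them.

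Genes downstream of the channels were listed for P2X7 and for P2X4. Of 12 genes that link P2X7 to the inflammasome, 2 were higher in macrophages than in DC, Nlrp3 (68.4 FPKM in macrophages, 10.5 FPKM in DC and 134 FPKM in Gr-1+ CD11b+ cells) and Il1b (11637, 1894 and 13362). Both were also lower in DC than in the Gr-1+ CD11b+ cells. Txnip was lower in macrophages than in Gr-1+ CD11b+ cells, at 84.9 against 346 FPKM. The Gr-1+ CD11b+ library thus had the highest Nlrp3 while P2rx7 was below its silent-gene level. The potassium channel genes Kcnk13, at 7.72, 1.47 and 0.415 FPKM, and Kcnk6, at 3.68, 6.42 and 1.42, did not pass. Of 10 genes tied to P2X4 by its site or its known outputs, 3 were higher in macrophages than in DC (Cd63, Pla2g4a and Ptgs2) and 2 higher in macrophages than in Gr-1+ CD11b+ cells (Lamp1 and Ccl2). Lamp1, a lysosomal membrane protein gene, was at 807 FPKM in macrophages, 207 FPKM in DC and 132 FPKM in Gr-1+ CD11b+ cells, the same order as P2rx4. The related Lamp2, at 262, 105 and 363 FPKM, and Cd63, at 953, 215 and 403, had other orders, as did Ptgs2, the gene of cyclooxygenase-2, at 337, 41.5 and 217. Tlr4 and Ptgs2 were lower in DC than in the Gr-1+ CD11b+ cells.

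Genes of ligand supply and of related receptors were listed as well. Of 6 genes of lysophosphatidylserine receptors and enzymes, Gpr34, another receptor of this lipid, was higher in macrophages than in DC and the Gr-1+ CD11b+ cells, at 26.3 FPKM in macrophages, 2.75 FPKM in DC and 0.936 FPKM in Gr-1+ CD11b+ cells, the reverse of P2ry10 between macrophages and DC. Gpr174, the nearest measured gene to the right of P2ry10 at 151 kb, was at 0.491, 4.07 and 0.997 FPKM, and Abhd12, which degrades the lipid, at 119, 49.9 and 20.2. Abhd12 also passed the rule, as higher in macrophages than in Gr-1+ CD11b+ cells. Of 8 expressed genes of ATP release, 0 passed in any comparison. Panx1, a channel gene for ATP, was at 18.6 FPKM in macrophages, 30.6 FPKM in DC and 6.99 FPKM in Gr-1+ CD11b+ cells. The ATP-degrading enzyme gene Entpd1 was at 0.410 times the P2rx4 level in macrophages, 0.342 times in DC and 11.4 times in Gr-1+ CD11b+ cells, and Entpd8 was at 0.487, 1.21 and 1.13 FPKM. Of the 4 adenosine receptor genes, Adora2b was the 1 past the rule, with macrophages above both other libraries, at 215, 23.7 and 29.5 FPKM in macrophages, DC and Gr-1+ CD11b+ cells. The shares of all genes given above hold for these lists too, and nothing particular to the lists is read from their counts.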

How the data were processed

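Per the labels' protocols, RNeasy columns, SMART-Seq HT cDNA and Nextera libraries were used. The files the authors deposited list 1 FPKM value per gene symbol and library. Per the submitters' processing notes, build mm10, Cufflinks 2.2.1, TopHat2 2.0.13, SAMtools 0.1.19 and Bowtie2 2.2.3 are named without roles. Annotation and filters are not stated there. Very abundant genes lower all other FPKM values of a library: the top 10 genes held 22.2% of the sum in macrophages, 15.0% for DC and 33.5% for the Gr-1+ CD11b+ cells.

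FPKM values were used as deposited, with a pseudocount of 1 before log2. GENCODE M21 (GRCm38) holds 23310 of the 24346 symbols. For single-transcript genes over 800 nt, FPKM times length less 200 nt stepped in multiples of 0.147, 0.111 and 0.399 FPKM kb in macrophages, DC and Gr-1+ CD11b+ cells. Low values were within 0.2 of a whole number of steps in 81.7%, 82.6% and 85.2% of cases, and chance gives 40%. These steps gave the fragments behind each value, taking the shortest coding transcript over 800 nt. Intervals are exact Poisson for levels and exact binomial (Clopper-Pearson) for ratios. A value of 3 fragments on an effective length of 1 kb corresponds to 0.442, 0.333 and 1.20 FPKM.

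The text names all genes of the family, the 3 genes nearest to each receptor, genes overlapping or beside a receptor, and of each list up to 4 of the highest and 4 of the largest differences. Symbols that are only codes were left out. The members, lists, size rule and silent-gene level were chosen with earlier results of these data known. Alternatives were pseudocounts of 0.1 and 10, floors of 1 and 30 FPKM, log2 limits of 1 and 3, scaling to equal sums, median ratios or 75th percentiles, subtraction of the silent genes' median or 95th percentile, a silent-gene level at the 90th or 99th percentile, and a distance centred on each gene's mean. The size rule and the fragment step were run on simulated Poisson counts with the same length model and no variation between mice or sorts. The distance was run there on a planted copy of P2rx4. Such runs check the code only and cannot show how well these measures work on the libraries. P2ry10b was not analysed here. Grk2 was not found under that symbol, and its older symbol Adrbk1 was among the 11 genes of receptor desensitisation. Python 3.11.15, NumPy 2.4.6, pandas 2.3.3, SciPy 1.17.1 and matplotlib 3.10.9 were used.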

Additional observations from a re-analysis of the deposited data

How the results depend on the processing

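No replicate could be left out, with 1 library per population. No paired analysis was possible because each group has 1 library and the result comes from no test. Of the 9 genes, the 5 higher in macrophages than in DC became 0 with a pseudocount of 10 or a log2 limit of 3, 3 with a floor of 30 FPKM or equal sums, and 2 after subtracting the silent-gene level. The 3 higher in macrophages than in Gr-1+ CD11b+ cells became 1 with a pseudocount of 10, median-ratio or 75th percentile scaling, each time P2rx4, 0 with a log2 limit of 3 and 6 with a limit of 1, where 1 gene was higher in Gr-1+ CD11b+ cells instead of 0. The 1 gene higher in DC than in the Gr-1+ CD11b+ cells became 2 with a limit of 1 and 3 after subtracting the silent-gene level, and the 2 higher in Gr-1+ CD11b+ cells became 1 with a pseudocount of 10 or a floor of 30 FPKM. A higher pseudocount, limit or floor lowers such counts by construction, and the cause of the other changes was not tested. P2ry10 passed the rule as higher in DC under every alternative listed here, in both comparisons. Equal sums shifted the median of all genes by -0.25 for macrophages minus DC and 0.28 for DC minus Gr-1+ CD11b+ cells. Median ratios shifted it by 0.12, -0.43 and -0.62 in the 3 comparisons in the order given. The silent-gene level of the shallowest library, Gr-1+ CD11b+ cells, limits what can be read for P2rx1, P2rx7, P2ry10, P2ry12 and P2ry14 there. With the 99th percentile, 8, 8 and 3 of the 9 genes exceeded it in macrophages, DC and Gr-1+ CD11b+ cells, and with the 90th 9, 9 and 5.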
